A study of Mus musculus with 40 samples.

Results

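The messenger RNA of 45 genes that sense or repair DNA damage was followed in the mouse uterus after doxorubicin and anti-Müllerian hormone (AMH). The genes were taken by name from a table of 54532 genes, and each of the 45 was found there once. All 45 passed the filter on low values, 1 FPKM (fragments per kilobase of gene, scaled between libraries) or more in at least 5 of 40 libraries. In all, 16226 genes of the table passed it. They comprise 6 damage sensors and checkpoint kinases, 5 mediators on chromatin, 15 genes of homologous recombination, 3 Fanconi anaemia genes, 5 genes of end joining, 5 of base excision and single-strand break repair, 2 of mismatch repair and 4 of nucleotide excision repair.

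Prepubertal mice of postnatal day 25 were treated, and RNA of the uterus was sequenced in bulk from tissue collected 4 h or 24 h later. At each time there were 5 libraries of each of 4 groups, 40 in all: doxorubicin with AMH, doxorubicin alone, AMH alone and controls given PBS or saline. Doxorubicin was given weekly at 3 mg/kg, for 2 doses in all, as the series text has it, and AMH at 0.75 mg/kg per the labels. The dose from which the 4 h and 24 h count is not given here. The labels state no strain and no genetic alteration, and they number the libraries as biological replicates without saying that each came from 1 mouse, so that p-values measure the spread between these libraries. Doxorubicin is an anthracycline that traps topoisomerase II on DNA and breaks both strands. AMH is a hormone of the TGF-beta family that acts on Müllerian duct tissue through its receptor Amhr2.

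When both strands of DNA break, the Mre11-Rad50-Nbn complex binds the ends and activates the kinase Atm, while single-stranded DNA coated by replication protein A activates Atr and then Chek1. The histone variant encoded by H2afx is phosphorylated beside the break, and Mdc1, Rnf8, Rnf168 and Trp53bp1 assemble on it. End joining ligates the ends directly, whereas homologous recombination copies the sister chromatid and so operates after DNA has been replicated. Much of this machinery is switched on by modification of proteins that are already present, and many genes of homologous recombination are transcribed mainly in cells that replicate their DNA. A bulk messenger RNA level therefore describes the supply of these proteins and not their activity. In a bulk sample, fewer cells of a type and less RNA per cell cannot be told apart.

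The libraries held 16251563 to 27391049 reads assigned to genes, as recovered from FPKM and gene length. All 10 uterus and Müllerian stroma or muscle markers had a median of 1 FPKM or more. A score of 13 markers of oviduct and ciliated cells, their average log2(FPKM + 1), exceeded that of the median library by more than 1 in 8 libraries, namely doxorubicin with AMH replicate 5, doxorubicin replicates 3 and 4 and control replicate 4 at 4 h, and doxorubicin with AMH replicate 4 and doxorubicin replicates 3, 4 and 5 at 24 h. The same score of 13 oestrogen-induced epithelial genes was that high in 6 libraries, all at 24 h: doxorubicin replicates 1 and 4, AMH replicate 3 and control replicates 1, 2 and 4. Scores of DNA replication genes differed widely between libraries of 1 group, most of all at 24 h, with 1.78 to 4.37 in the AMH libraries and 2.03 to 4.28 in the controls. As a check on the labels, doxorubicin raised 13 of 20 p53 target genes at 4 h and 11 of 20 at 24 h, with no gene of that list lower. Cdkn1a, the p53-induced inhibitor of the cell cycle, was higher by a log2 difference of 3.39 ± 0.36 (SE) at 4 h (limma adjusted p = 6.6e-07).

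The 45 genes spanned a wide range of level. H2afx had the highest median over the 40 libraries, 38.3 FPKM, followed by Parp1, which marks DNA breaks with poly(ADP-ribose), at 20.03 FPKM, Xrcc5, the Ku80 subunit of the end-binding Ku dimer, at 17.1 FPKM, and Ercc3, a helicase of the repair and transcription factor TFIIH, at 15.96 FPKM. At the other end were the recombination motor protein Rad54b at 0.423 FPKM, the exonuclease Exo1 at 0.475 FPKM and the Fanconi pair Fancd2 and Fanci at 0.521 and 0.525 FPKM. In all, 9 genes had a median over 10 FPKM and 18 a median under 2 FPKM, and 29 reached 1 FPKM in every library. Another gene of the table overlaps 30 of the 45, and for 17 that other gene was itself tested, as with Xrcc6 and Desi1, Xpa and Ncbp1, Lig3 and Rffl, Msh6 and Fbxo11, or Pms2 and the ciliary gene Rsph10b. Whether counting used strand is not given in the sources used here, so reads of such pairs are uncertain.

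**Figure D1:**
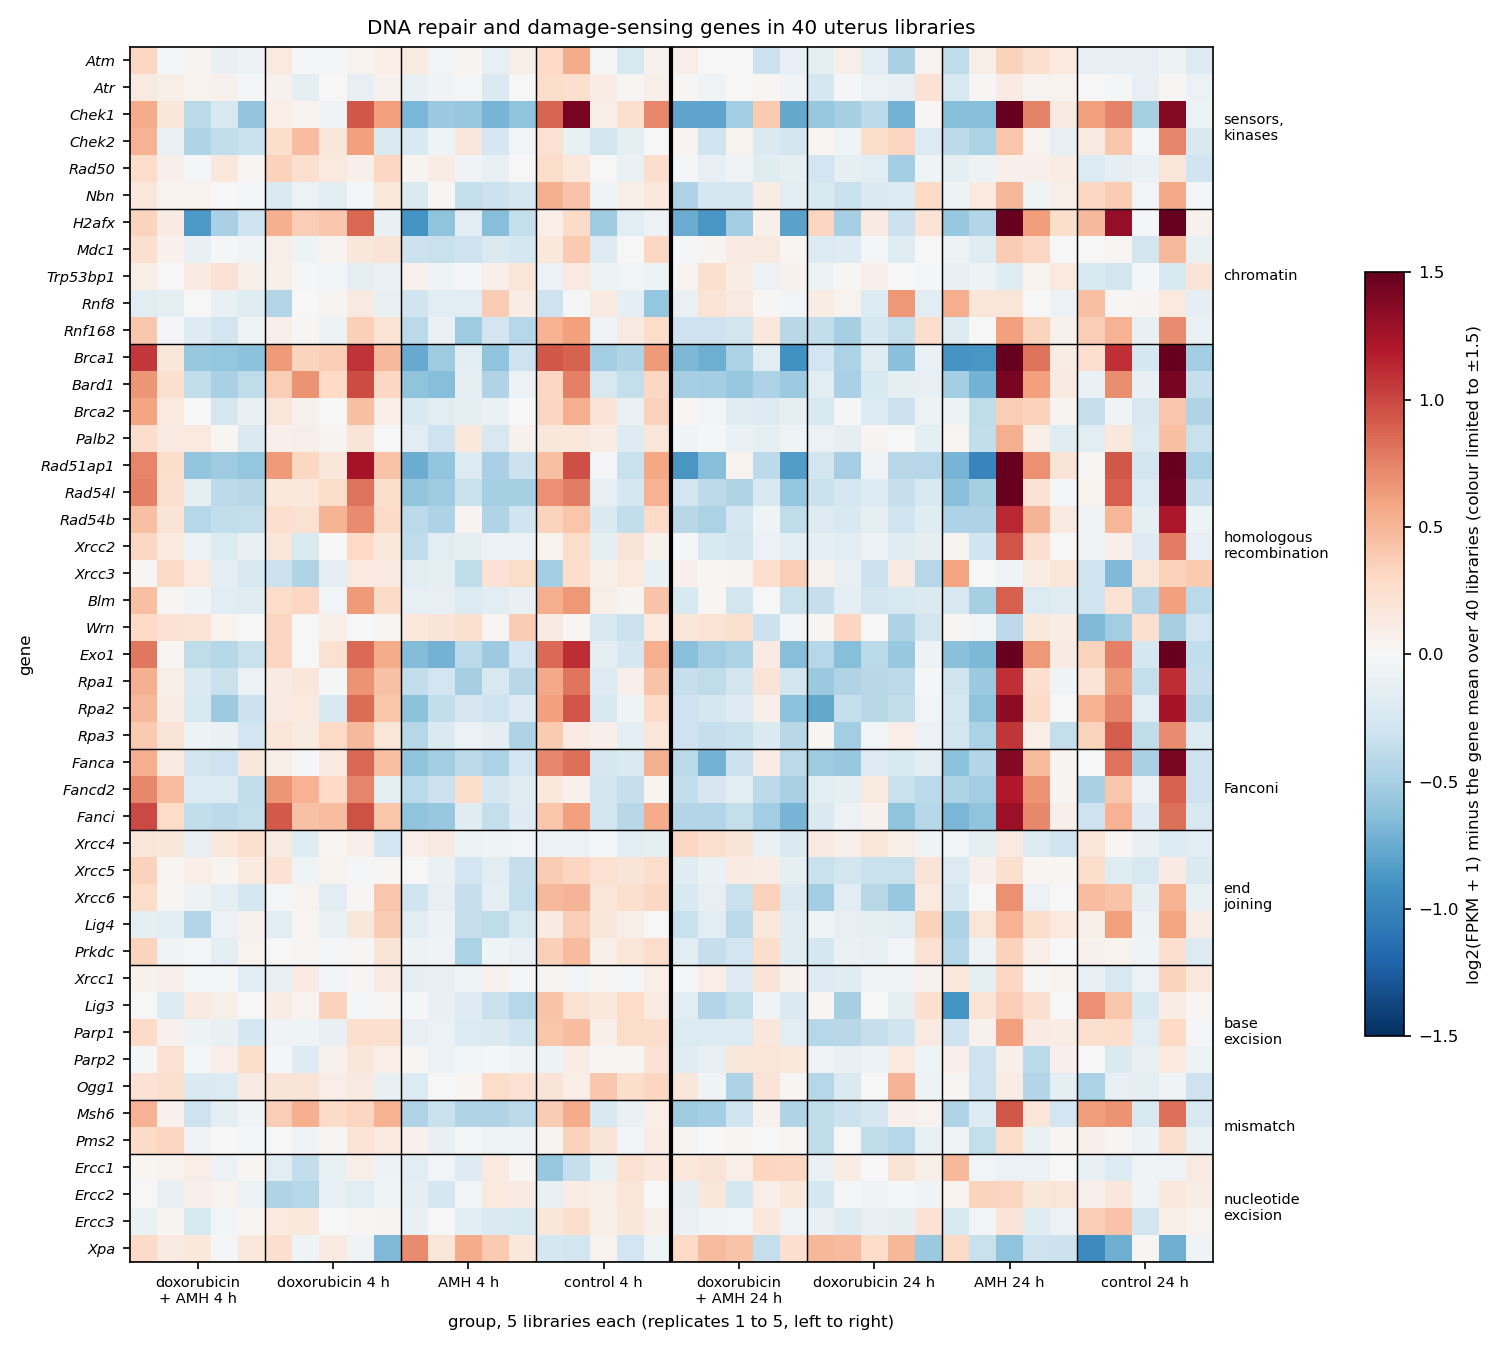
Level of each of the 45 genes (rows, by role) in each of the 40 libraries (columns, 5 per group), as log2(FPKM + 1) minus the mean of the gene over all libraries, with colours limited to 1.5 on either side. AMH replicate 3 and control replicate 4 at 24 h stand out in the homologous recombination and Fanconi rows, and all 5 AMH libraries at 4 h lie low in Chek1, Mdc1 and Xrcc6.

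Within groups, many of these genes varied from library to library together with genes of cell division. Each gene's deviation from its group mean was set against the same deviation of a score of 22 mitosis genes over the 40 libraries, with permutation of libraries within groups (100000 resamples, two-sided) and adjustment over the 45 genes. Of the 45, 25 had a positive and 1 a negative Pearson correlation that passed, and the median over all 45 was 0.48. With the adjustment made over all 16204 genes tested outside the score, 21 of 45 (46.7%) passed, all positive, where 5.53% of all genes passed, 3.55% being positive, and the median r of all genes was -0.03. A score of 20 DNA replication genes, chosen after the data were seen, gave 33 positive and 1 negative, with a median of 0.75. Adjusted over all 16206 genes, 32 of 45 (71.1%) passed as positive and 1 (2.22%) as negative, where 35.4% of all genes passed, 18.5% as positive and 16.9% as negative, and their median was -0.03. The counts by role use the adjustment over the 45. Every point is a library, so depth, composition and tissue makeup are shared by both axes, and their part in the correlation was not tested.

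The roles differed in these correlations. With the DNA replication score, 13 of 15 homologous recombination genes passed, as did 3 of 3 Fanconi genes, 6 of 6 sensors and kinases, 4 of 5 end-joining genes, 3 of 5 chromatin mediators, 2 of 4 nucleotide excision genes and 2 of 2 mismatch repair genes, while 1 of 5 base excision genes did. With the mitosis score no end-joining and no base excision gene passed, while 13 of 15 recombination and 3 of 3 Fanconi genes did. The difference between roles was not tested. Exo1, which resects DNA ends, had the strongest relation with the DNA replication score (Pearson r = 0.985, Spearman rho = 0.971, each with permutation p = 1e-05, the smallest that these permutations can give, and adjusted p = 2.4e-05 and 2.5e-05). Without the 2 libraries farthest from the median, AMH replicate 3 and control replicate 4 at 24 h, r was 0.976 for Exo1, and it was 0.976 over the 4 h libraries and 0.989 over those of 24 h. Brca1, the scaffold that directs ends to recombination, followed at r = 0.973 (rho = 0.953), then Rpa1, the large subunit of the single-strand binding protein, at 0.965 (rho = 0.916) and the checkpoint kinase Chek1 at 0.958 (rho = 0.968), with the same p-values as Exo1. Without the same 2 libraries r was 0.958 for Brca1, 0.942 for Rpa1 and 0.937 for Chek1. Fancd2 and Fanci, which together form the clamp of the Fanconi pathway, were closest to the mitosis score, at r = 0.952 (rho = 0.953) and 0.923 (rho = 0.912), each with permutation p = 1e-05 and adjusted p = 4.1e-05 for r and 5.6e-05 for rho. Without the same 2 libraries r was 0.938 for Fancd2 and 0.896 for Fanci.

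Some genes did not pass, and others passed with a negative correlation. Xrcc4, the scaffold of the end-joining ligase, had r = 0.085 with DNA replication (rho = 0.022, permutation adjusted p = 0.65 and 0.90), and the glycosylase Ogg1, which removes oxidised guanine, had 0.175 (rho = 0.154, adjusted p = 0.33 and 0.43). Xpa, which verifies damage in nucleotide excision repair, ran the other way (r = -0.523, rho = -0.522, permutation p = 0.0016 and 0.0014, adjusted p = 0.0025 and 0.0022), and r was -0.483 without the same 2 libraries. For Xpa r was -0.686 over the 24 h libraries and -0.096 over those of 4 h, and the difference between times was not tested. Ercc1, a subunit of the nuclease that cuts beside the lesion, was the single negative gene with the mitosis score (r = -0.436, rho = -0.438, permutation p = 0.014 and 0.0090, adjusted p = 0.026 and 0.019), and r was -0.445 without the 2 farthest libraries. It did not pass when adjusted over all genes. Over the 26 genes that passed with the mitosis score the sign was the same at both times and without those libraries, and for DNA replication it was the same at both times in 33 of 34 and without those libraries in 34 of 34.

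**Figure D2:**
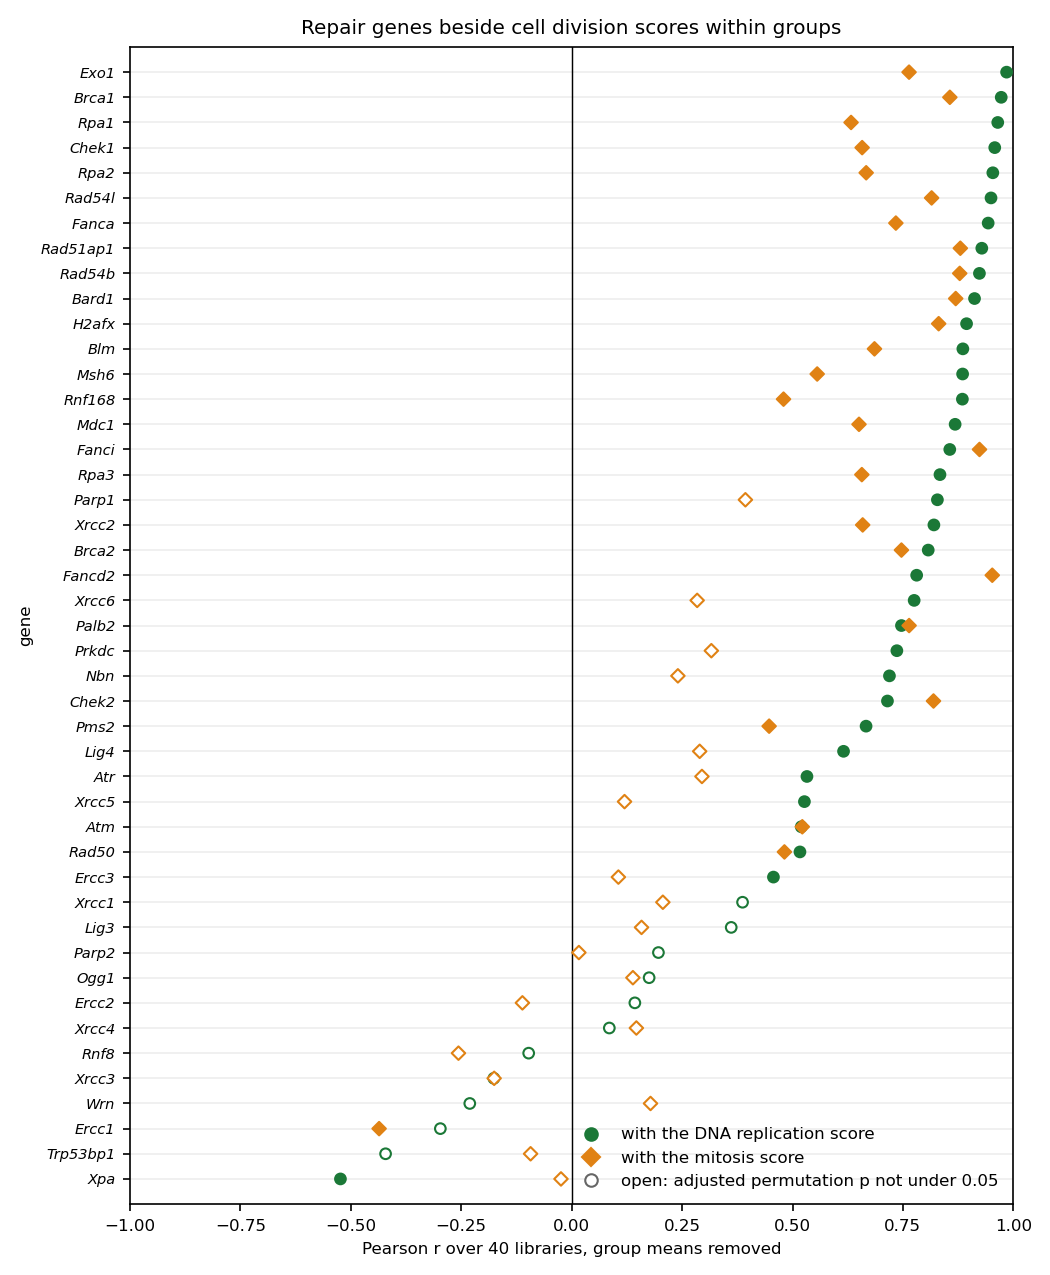
Pearson correlation (x axis) of each of the 45 genes (y axis) with a score of 20 DNA replication genes (circles) and of 22 mitosis genes (diamonds) over 40 libraries after the group means were removed, with open symbols where the adjusted permutation p was not under 0.05. Most recombination genes and the Fanconi genes lie at the right for both scores, with Exo1 at 0.985 for DNA replication. The recombination genes Xrcc3 and Wrn do not, at -0.176 and -0.231 for DNA replication. Xpa lies at the left for DNA replication, at -0.523.

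Promoter sequence was available from RefSeq (build GRCm38.p6, 250 bases before to 50 bases after the gene start) for 35 of the 45 genes. The E2F element of replication genes, searched as TTTCCCGC, TTTCGCGC, TTTGCCGC or TTTGGCGC on both strands, was present in 6 of the 35 (17.1%), against 2.60% of 27025 genes in the same table. Those 6 were the checkpoint kinase Chek2, Mdc1, the Brca1 partner Bard1, the recombination gene Brca2, Xrcc6, the Ku70 subunit of the Ku dimer, and the mismatch sensor Msh6. Brca1, Rpa1 and Chek1, which varied closely with DNA replication, did not hold the element, and Exo1 had no promoter here. The share over all genes was not matched for base composition. The cell cycle homology element TTTGAA was in 2 of 35 (5.71%), against 20.2% of all, and CCAAT was in 22 of 35 (62.9%), against 41.1% of all. These matches are descriptions of letters, and whether a factor binds them was not measured. Of the 9 genes with a promoter here that fell with AMH at 4 h, 2 held the E2F element, against 4 of 25 of those that did not change. Printed here, in capitals the matches, are Xrcc6 and Mdc1, which hold the E2F element and fell with AMH at 4 h, Bard1, which holds the E2F and the cell cycle homology element and fell with doxorubicin and AMH at 24 h, and Xpa, the gene that rose in 3 comparisons and holds CCAAT only. Xrcc6 and Mdc1 also hold CCAAT. No match shared a base with another in these 4. The RefSeq start of Xrcc6 lies inside the longer gene model of the deposited table.
Xrcc6, GRCm38.p6 chr15:82016119-82016418, plus strand: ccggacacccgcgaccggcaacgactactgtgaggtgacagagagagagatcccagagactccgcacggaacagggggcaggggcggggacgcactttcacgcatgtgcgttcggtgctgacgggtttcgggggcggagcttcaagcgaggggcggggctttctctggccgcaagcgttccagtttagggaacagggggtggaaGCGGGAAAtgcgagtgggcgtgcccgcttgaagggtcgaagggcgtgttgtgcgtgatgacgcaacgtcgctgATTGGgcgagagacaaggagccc
Mdc1, GRCm38.p6 chr17:35841248-35841547, plus strand: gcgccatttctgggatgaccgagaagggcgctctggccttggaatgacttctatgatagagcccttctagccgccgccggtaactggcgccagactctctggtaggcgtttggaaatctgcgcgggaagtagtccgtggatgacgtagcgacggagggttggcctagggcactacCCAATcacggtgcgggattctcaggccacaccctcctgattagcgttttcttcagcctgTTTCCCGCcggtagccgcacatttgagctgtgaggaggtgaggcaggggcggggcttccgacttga
Bard1, GRCm38.p6 chr1:71102923-71103222, minus strand: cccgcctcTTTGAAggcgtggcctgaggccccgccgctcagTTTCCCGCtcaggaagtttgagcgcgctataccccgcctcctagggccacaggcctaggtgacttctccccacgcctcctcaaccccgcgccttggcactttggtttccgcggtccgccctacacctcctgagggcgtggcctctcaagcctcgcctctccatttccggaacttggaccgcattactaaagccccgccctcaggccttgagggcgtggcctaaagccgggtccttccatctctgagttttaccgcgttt
Xpa, GRCm38.p6 chr4:46196262-46196561, minus strand: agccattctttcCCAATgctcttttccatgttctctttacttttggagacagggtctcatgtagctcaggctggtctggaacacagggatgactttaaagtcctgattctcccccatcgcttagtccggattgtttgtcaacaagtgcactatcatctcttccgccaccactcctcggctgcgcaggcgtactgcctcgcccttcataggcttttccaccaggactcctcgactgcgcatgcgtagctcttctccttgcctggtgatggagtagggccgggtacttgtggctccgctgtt

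Doxorubicin alone changed none of the 45 genes at 4 h. The test compared doxorubicin with control libraries by limma across all 16226 genes, of which 0.493% passed at an adjusted p under 0.05, and 0 of 45 repair genes did. The median log2 difference over the 45 was -0.03, against 0.01 over all genes tested, and 4 of the 45 had an unadjusted p under 0.05 (Atr, Nbn, Xrcc5 and Ercc2). By voom on the rebuilt reads the count was also 0, and with weights per library it was 1. In the same libraries the 22 mitosis genes all had a positive difference, with a median of 1.17, of which 12 had an unadjusted p under 0.05 and 0 passed.

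None of the 6 kinases and sensors that receive the damage signal passed. Atm had 3.79, 3.27, 3.26, 3.496 and 3.66 FPKM in doxorubicin libraries at 4 h, against 4.34, 5.40, 3.30, 2.65 and 3.53 FPKM in controls. The doxorubicin values of Atm lay inside the control range. H2afx had 58.2, 51.9, 52.9, 73.1 and 36.7 FPKM in doxorubicin libraries, against 42.8, 48.8, 27.2, 35.3 and 37.4 FPKM in controls. All but 1 doxorubicin library lay above the highest control for H2afx, and its log2 difference of 0.49 ± 0.32 (SE) did not pass (limma adjusted p = 0.58). Ercc2, the second helicase of TFIIH, had the smallest p of the 45. Its mean was 4.48 ± 0.681 FPKM (SD, n = 5) after doxorubicin, against 5.72 ± 0.504 FPKM (SD, n = 5) in controls, and its log2 difference was -0.30 ± 0.09 (SE, limma adjusted p = 0.14). Replicate 4 of the doxorubicin libraries was the highest of the 5 in Chek1, Brca1, Rad51ap1 and Rad54l and is among those with high oviduct and ovary markers.

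Outside the 45, 107 further repair genes were listed by pathway, of which 102 were tested, and 1 of them changed with doxorubicin at 4 h. Over all genes tested 0.493% passed. The 1 gene was Polk, a translesion polymerase that copies past damaged bases. Polk had 6.27, 7.44, 5.43, 3.41 and 6.18 FPKM in doxorubicin libraries, against 2.32, 2.89, 3.58, 2.50 and 3.71 FPKM in controls. Replicate 4 of the doxorubicin libraries fell inside the control range and the other 4 lay above it. The log2 difference was 0.74 ± 0.14 (SE) with an adjusted p of 0.0057.

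AMH added to doxorubicin changed none of the 45 genes at 4 h against doxorubicin alone, where 0.00616% of all genes passed. Of the 45, 4 had an unadjusted p under 0.05 in that comparison, Chek2, Rad54b and Fanci with lower and Ercc2 with higher values in the combined treatment, and 12 of 45 had a positive difference. Chek2 averaged 4.19 ± 1.63 FPKM with doxorubicin and AMH and 5.79 ± 1.43 FPKM with doxorubicin (SD, n = 5 each), which is a log2 difference of -0.41 ± 0.18 (SE, limma adjusted p = 0.71). Against controls the combined treatment also changed 0 of 45 at 4 h, with 0.394% of all genes passing. Voom gave 0 in both comparisons, and library weights gave 0 and 6.

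AMH alone changed 14 of the repair genes at 4 h. Of the 45, 13 fell and 1 rose against controls (31.1%), where 20.0% of all genes tested passed, 10.9% lower and 9.13% higher. The median log2 difference over the 45 was -0.39, against 0.01 over all genes, and 22 of 45 had an unadjusted p under 0.05. The genes that fell came from every role except Fanconi anaemia and mismatch repair, whose 5 genes had lower values that did not pass. The 13 were Atr, Chek1, Nbn, Mdc1, Rnf168, Exo1, Rpa1, Xrcc5, Xrcc6, Prkdc, Lig3, Parp1 and Ercc3. The direction split was close to the same with FPKM rescaled to total reads in genes (1 higher, 14 lower) and to protein-coding genes (1 higher, 12 lower).

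Among sensors and kinases, Chek1, the kinase that stalls the cycle when replication forks stop, changed most. Chek1 had 0.699, 0.845, 0.832, 0.681 and 0.788 FPKM in AMH libraries, against 4.00, 6.29, 1.89, 2.21 and 3.49 FPKM in controls. Every AMH library lay below every control, and the AMH libraries were close together while the controls spread widely. The log2 difference was -1.29 ± 0.34 (SE, limma adjusted p = 0.0099). Nbn, the regulatory subunit of the end-binding complex, averaged 10.2 ± 1.19 FPKM with AMH and 14.5 ± 2.63 FPKM in controls, and AMH replicate 2 at 12.2 FPKM lay above the lowest control, 11.5 FPKM. Atr averaged 1.27 ± 0.141 FPKM with AMH and 1.66 ± 0.210 FPKM in controls (SD, n = 5 each). Atm, Chek2 and Rad50 had log2 differences between -0.12 and -0.03 that did not pass.

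On chromatin, the adaptor Mdc1 and the ubiquitin ligase Rnf168 fell. Rnf168 had 6.39, 8.09, 5.77, 6.99 and 6.24 FPKM in AMH libraries, against 13.0, 14.004, 8.41, 9.72 and 10.8 FPKM in controls. Mdc1 had 6.93, 6.86, 7.0024, 7.53 and 7.26 FPKM in AMH libraries, against 10.03, 12.03, 7.63, 8.90 and 11.2 FPKM in controls. The groups did not overlap in either gene, though the gap for Mdc1 was narrow. The log2 differences were -0.65 ± 0.17 for Rnf168 and -0.42 ± 0.11 for Mdc1 (SE, limma adjusted p = 0.0090 and 0.011). Trp53bp1, which channels ends into joining, and the first ligase Rnf8 had log2 differences of 0.07 and 0.15, and H2afx one of -0.45, and none of these passed.

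In end joining, both Ku subunits and the kinase they recruit fell. Xrcc5 had 16.6, 15.5, 13.5, 14.7 and 13.0 FPKM in AMH libraries, against 22.02, 21.2, 19.8, 19.2 and 20.3 FPKM in controls. Xrcc6 had 8.49, 9.68, 8.16, 9.48 and 8.07 FPKM in AMH libraries, against 15.3, 15.5, 12.2, 12.7 and 13.4 FPKM in controls. In both genes the highest AMH library lay below the lowest control. Their log2 differences were -0.46 ± 0.10 and -0.60 ± 0.16 (SE, limma adjusted p = 0.0055 and 0.011). Prkdc, the catalytic subunit of the DNA-dependent kinase, averaged 1.44 ± 0.279 FPKM with AMH and 2.29 ± 0.355 FPKM in controls (SD, n = 5 each). The ligase Lig4 had a difference of -0.39 and its partner Xrcc4 one of 0.11, and neither passed.

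In single-strand break repair Parp1 and the ligase Lig3 fell. Parp1 had 19.1, 19.5, 18.0, 17.8 and 16.9 FPKM in AMH libraries, against 28.2, 29.2, 22.1, 25.4 and 25.2 FPKM in controls. The groups did not overlap, and the log2 difference was -0.48 ± 0.13 (SE, limma adjusted p = 0.011). Lig3 averaged 5.77 ± 0.760 FPKM with AMH and 8.32 ± 0.791 FPKM in controls (SD, n = 5 each). Xrcc1, Parp2 and Ogg1 had log2 differences between -0.19 and -0.07 that did not pass.

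Of 15 homologous recombination genes, 2 fell, Exo1 and Rpa1, although 14 of 15 had a negative difference and 7 an unadjusted p under 0.05. Exo1 had 0.124, 0.0765, 0.329, 0.208 and 0.439 FPKM in AMH libraries, against 2.16, 2.80, 0.595, 0.483 and 1.56 FPKM in controls. Rpa1 averaged 10.7 ± 0.823 FPKM with AMH and 18.5 ± 5.14 FPKM in controls (SD, n = 5 each). Brca1 had 0.270, 0.478, 0.904, 0.410 and 0.726 FPKM in AMH libraries, against 3.07, 2.97, 0.498, 0.564 and 2.34 FPKM in controls. Control replicates 3 and 4 lay among the AMH libraries for Brca1, and its log2 difference of -0.77 ± 0.40 (SE) did not pass (limma adjusted p = 0.16). In nucleotide excision repair Ercc3 fell, with 14.5 ± 1.06 FPKM with AMH and 18.1 ± 1.05 FPKM in controls (SD, n = 5 each). Xpa rose, with 14.3, 9.58, 12.7, 11.2 and 9.44 FPKM in AMH libraries, against 6.76, 6.72, 8.68, 6.65 and 7.97 FPKM in controls, a log2 difference of 0.57 ± 0.20 (SE, limma adjusted p = 0.040).

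DNA replication genes moved in the same libraries. Of the 20 listed, 13 fell and none rose with AMH at 4 h, and their score was 1.82 to 2.14 in AMH libraries and 2.60 to 3.88 in controls. Mitosis genes did not pass in either direction (0 of 22, median difference -0.06). Oestrogen-induced epithelial genes scored 2.68 to 3.46 in AMH libraries and 3.496 to 4.38 in controls, and 2 of 11 tested fell. Oviduct markers scored 0.396 to 0.874 in AMH libraries and 0.427 to 1.83 in controls. None of 7 leukocyte, 3 ovary and 5 adipocyte markers tested passed, and 1 of 3 skeletal muscle markers fell. The part of these genes and of cell makeup in the repair result was not tested. With weights per library 25 of 45 were called, without the high-oviduct libraries 11, and without the high-oestrogen libraries, which enter the fit as other groups only, 23 were. The count depended on single libraries. It was 7 without control replicate 1, 7 without control replicate 2, 7 without AMH replicate 3, 8 without AMH replicate 4 and 9 without AMH replicate 5. Chek1, Mdc1, Rnf168, Xrcc5, Xrcc6 and Parp1 passed in each of these and in every other setting in which they were tested, which for Chek1 leaves out the filter at 5 FPKM.

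**Figure D3:**
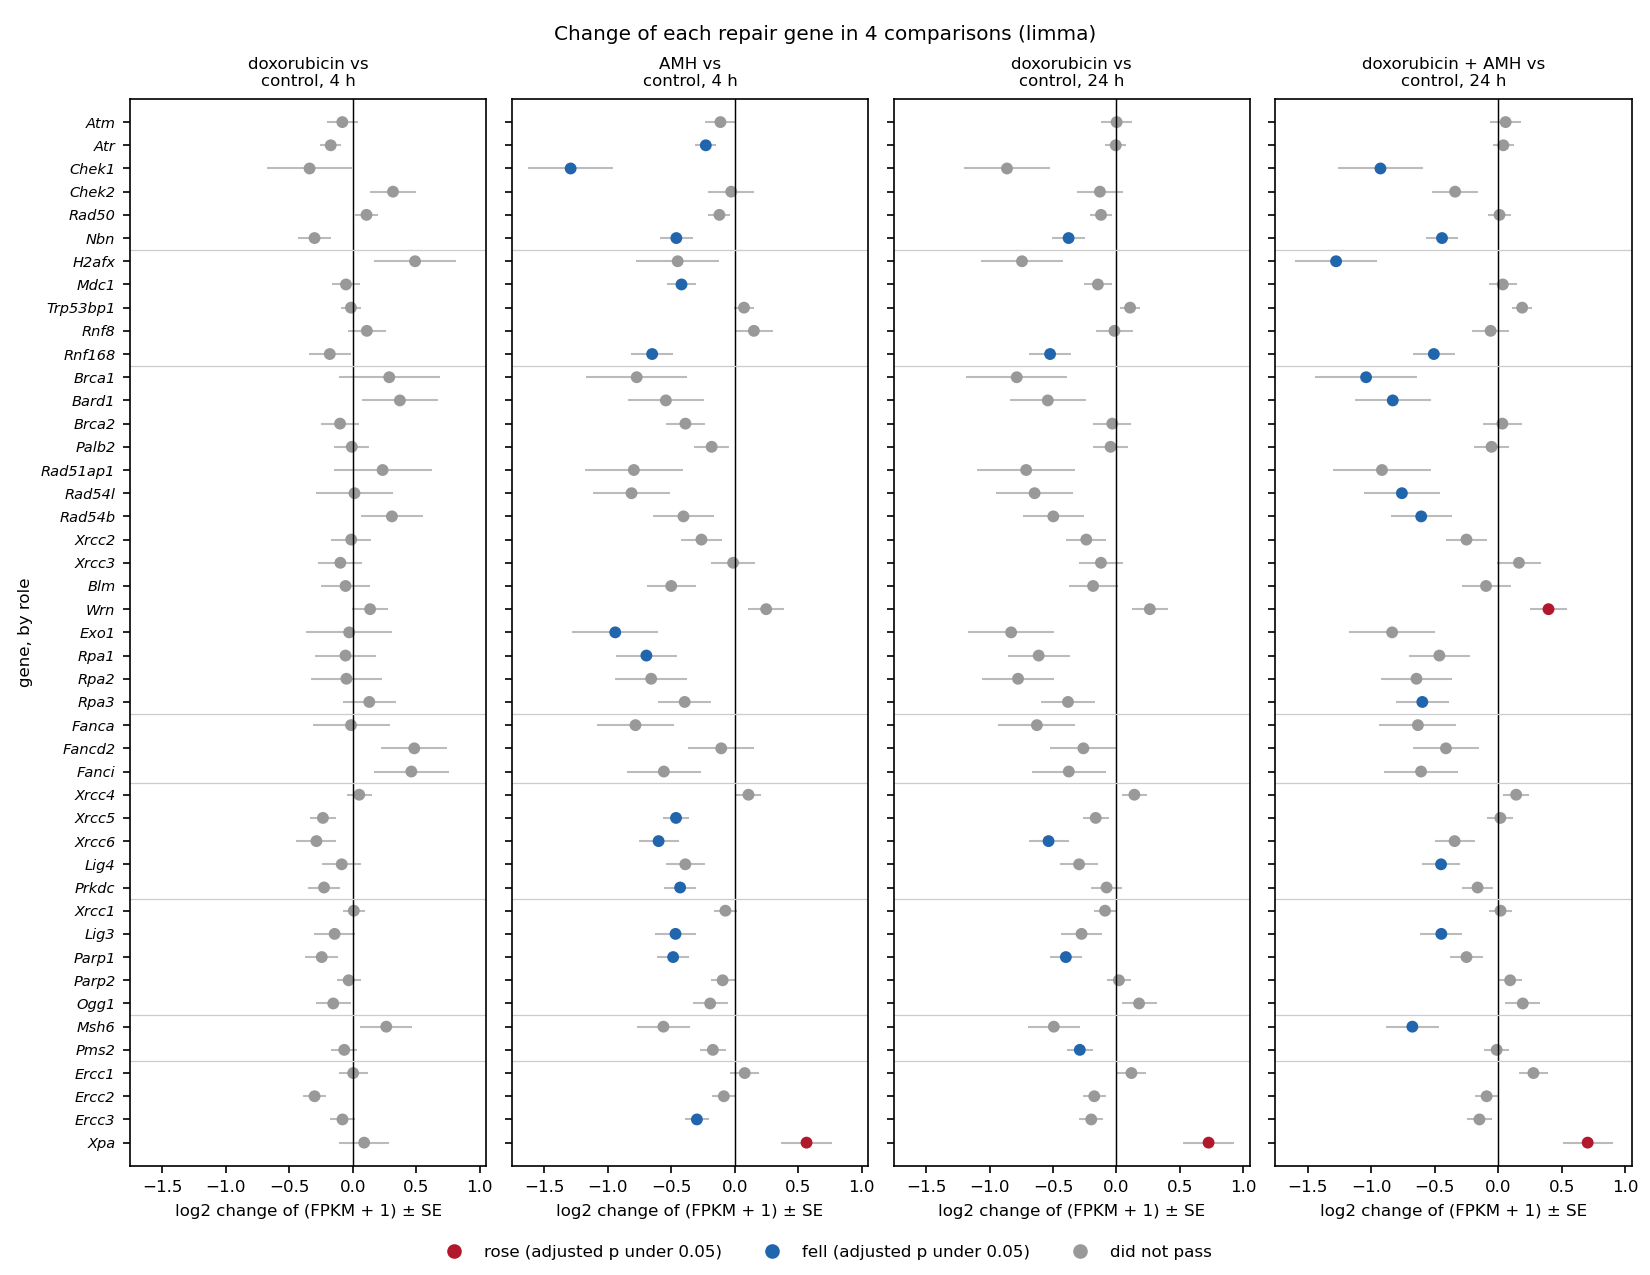
Log2 difference of (FPKM + 1) with its standard error (x axis) for each of the 45 genes (y axis, by role) in 4 comparisons, with genes that rose in red, genes that fell in blue and the rest in grey. With AMH at 4 h 13 genes fell and Xpa rose, with doxorubicin at 4 h none changed, and at 24 h doxorubicin changed 6 and doxorubicin with AMH 14.

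Of the 102 other repair genes, 8 were higher and 19 lower with AMH at 4 h (26.5%), with a median log2 difference of -0.17. Over all genes tested 20.0% passed, 9.13% higher and 10.9% lower. Pcna, the sliding clamp of replication, had 19.0 to 22.9 FPKM in AMH libraries and 36.4 to 89.7 FPKM in controls, with a log2 difference of -1.37 ± 0.40 (SE, limma adjusted p = 0.016). The fork protection pair Timeless and Tipin fell by 1.09 and 1.07 on the log2 scale, the Atr activator Topbp1 by 0.95 and Rmi2, a subunit of the Blm complex, by 1.12. The uracil glycosylase Ung fell by 1.34. Higher were the glycosylase Neil2 by 0.71, the damage sensor Xpc by 0.56, the end-joining factor Paxx by 0.52 and Rev3l, the catalytic subunit of a translesion polymerase, by 0.63. Mre11a, the nuclease of the end-binding complex, fell by 0.37. Trp53 fell by 0.46 on the log2 scale with AMH at 4 h (limma adjusted p = 0.0080).

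At 24 h doxorubicin changed 6 of the 45 genes, 5 lower and 1 higher (13.3%), where 18.4% of all genes passed, 9.95% lower and 8.44% higher, so the repair genes changed no more often than genes in general. Nbn, Rnf168, Xrcc6, Parp1 and the mismatch repair nuclease subunit Pms2 fell, and Xpa rose. The median log2 difference over the 45 was -0.24, against -0.01 over all genes, and 8 of 45 were positive. No homologous recombination or Fanconi gene passed.

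Parp1 had 15.2, 15.4, 16.2, 16.8 and 23.1 FPKM in doxorubicin libraries at 24 h, against 24.9, 25.3, 18.6, 25.99 and 20.7 FPKM in controls. Xrcc6 had 7.15, 9.39, 7.69, 6.86 and 11.9 FPKM in doxorubicin libraries, against 15.1, 14.6, 9.62, 15.7 and 9.73 FPKM in controls. In both genes doxorubicin replicate 5 was the highest doxorubicin library and lay inside the control range. Xpa had 12.2, 12.02, 10.3, 12.2 and 5.36 FPKM in doxorubicin libraries, against 3.83, 4.64, 8.47, 4.65 and 8.01 FPKM in controls. Here replicate 5 was the lowest doxorubicin library and lay inside the control range, and controls 3 and 5 were above the other 3. The same replicate 5 had high oviduct markers, 2.02 above the median library, as did replicates 3 and 4, at 2.28 and 2.43 above it. Replicate 5 also had the highest ovary markers of its group, 1.67 above the median library. Its DNA replication score, 2.58, was the highest of its group too, against 1.87 to 2.12 in the others. The part of these scores in these values was not tested. Xpa rose by a log2 difference of 0.73 ± 0.20 (SE, limma adjusted p = 0.015), and Xrcc6 fell by 0.54 on that scale (adjusted p = 0.021).

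These calls at 24 h rested on few libraries. Control replicates 1, 2 and 4, which have high oestrogen-induced genes, were the highest controls in Xrcc6, Parp1, Nbn and Rnf168 and the lowest in Xpa. Without the high-oestrogen libraries, which leaves 2 controls and 3 doxorubicin libraries, 0 of 45 passed. The count was 0, 0, 17, 1 and 13 without control replicate 1, 2, 3, 4 and 5 in turn, and 2, 3, 1, 1 and 11 without doxorubicin replicate 1, 2, 3, 4 and 5. With only these 2 groups in the fit it was 0, with voom 2 and with weights per library 22. Rescaled to total reads in genes, 1 of 45 was lower and 1 higher, and over all genes the split turned to 2279 higher and 646 lower, against 1369 higher and 1615 lower before. Oviduct markers scored 0.52 to 3.00 in doxorubicin libraries and 0.41 to 0.74 in controls. Of the other marker lists, 2 of 10 uterus and 2 of 3 skeletal muscle markers tested fell, 1 of 7 leukocyte markers rose, and none of 3 ovary and 5 adipocyte markers passed. The mean uterus score was 6.28 in doxorubicin libraries and 6.50 in controls, on the log2(FPKM + 1) scale. The DNA replication score was 1.87 to 2.58 in doxorubicin libraries and 2.03 to 4.28 in controls, and their part in the result was not tested.

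Of the 102 other repair genes, 9 were higher and 6 lower with doxorubicin at 24 h (14.7%). Over all genes 18.4% passed, 8.44% higher and 9.95% lower. All 4 that passed among 13 genes of translesion synthesis, nucleotide supply and direct reversal of damage rose, which was not tested against all genes. On the log2 scale Polk rose by 0.74 (limma adjusted p = 0.0010) and the polymerase Poli by 0.61. Mgmt, which removes alkyl groups from guanine, rose by 0.61, and Rrm2b, the p53-induced subunit of ribonucleotide reductase, by 0.46. Polk had 3.92, 6.35, 5.97, 4.36 and 4.69 FPKM in doxorubicin libraries at 24 h, against 2.27, 2.79, 3.18, 2.71 and 2.10 FPKM in controls, and the groups did not overlap. The recombination gene Rad51d rose by 0.55, and the nuclease scaffold Slx4 fell by 0.46.

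With doxorubicin and AMH together, 14 of the 45 genes changed at 24 h against controls, 2 higher and 12 lower (31.1%), where 34.3% of all genes passed, 15.7% higher and 18.6% lower. The share is near that of all genes. Wrn, a helicase and exonuclease, and Xpa rose. Chek1, Nbn, H2afx, Rnf168, Brca1, Bard1, Rad54l, Rad54b, Rpa3, Lig4, Lig3 and Msh6 fell, so that 5 of 15 homologous recombination genes were lower and 1 was higher.

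H2afx had 23.4, 21.4, 27.7, 42.2 and 22.4 FPKM in libraries of the combined treatment, against 56.4, 101, 39.2, 131 and 41.8 FPKM in controls. Replicate 4 of the combined treatment was the only one to reach the control range, and the log2 difference was -1.28 ± 0.32 (SE, limma adjusted p = 0.0044). Bard1 had 0.594, 0.578, 0.512, 0.622 and 0.539 FPKM in the combined treatment, against 1.10, 2.65, 1.08, 5.01 and 0.768 FPKM in controls. Here the groups did not overlap, and the treated libraries varied little while the controls spread widely. Msh6 had a mean of 11.5 ± 2.33 FPKM in the combined treatment, against 19.8 ± 6.94 FPKM in controls (SD, n = 5 each), which is a log2 difference of -0.68 ± 0.21 (SE, limma adjusted p = 0.013). Xpa averaged 10.1 ± 2.25 FPKM in the combined treatment and 5.92 ± 2.15 FPKM in controls, a difference of 0.70 ± 0.20 (adjusted p = 0.0082).

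Cell division genes were lower in the same libraries. Of 22 mitosis genes 15 fell and of 20 DNA replication genes 7 fell, with none higher, and oestrogen-induced genes scored 3.03 to 3.81 in the combined treatment and 3.18 to 6.67 in controls. Of 11 oestrogen-induced genes tested 6 fell, and oviduct markers were high in replicate 4 of the combined treatment. Of 10 uterus markers 1 rose and 3 fell, of 3 skeletal muscle markers 1 rose and 1 fell, and 1 of 7 leukocyte markers fell. Their part in the repair result was not tested. Without the high-oestrogen libraries 0 of 45 passed, and with only these 2 groups in the fit 1 did, with voom 9 and with weights per library 28. The count was 8, 3, 23, 4 and 22 without control replicate 1, 2, 3, 4 and 5 in turn, and 7, 7, 7, 18 and 6 without replicates 1, 2, 3, 4 and 5 of the combined treatment. H2afx, Nbn and Xpa passed in each of the 10 fits that left out 1 library of either group. Rescaling to total reads in genes shifted the median log2 difference of all genes to 0.11, against -0.0047 before. It gave 5 of 45 higher and 5 lower, and 3847 genes higher and 1672 lower over the table, against 2555 and 3011.

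Of the 102 other repair genes, 23 were higher and 20 lower (42.2%), where 34.3% of all genes passed, 15.7% higher and 18.6% lower. Rrm2, the replication-linked subunit of ribonucleotide reductase, had 1.06 to 2.92 FPKM in the combined treatment and 4.70 to 40.03 FPKM in controls, a log2 difference of -2.18 ± 0.61 (SE, limma adjusted p = 0.0080), while its p53-induced relative Rrm2b rose by 0.54. Among base excision genes 7 rose and 4 fell, and this split was not tested against that of all genes. Neil2 was higher by 0.69, Neil1 by 0.59 and Aptx, which repairs abortive ligation ends, by 0.46. The ultraviolet damage sensor Ddb2 rose by 0.62 and the clamp loader Rad17 fell by 0.40.

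Adding AMH to doxorubicin changed 0 of the 45 genes at 24 h against doxorubicin alone, where 0.333% of all genes passed, with 1 of 45 at an unadjusted p under 0.05. That gene was Pms2, which averaged 2.00 ± 0.0424 FPKM in the combined treatment and 1.49 ± 0.340 FPKM with doxorubicin (SD, n = 5 each), a log2 difference of 0.28 ± 0.10 (SE, limma adjusted p = 0.26). The number changed against controls, 14 and 6, does not show that the treatments differ. Both were set against the same 5 controls. The interaction of doxorubicin and AMH passed for 0 of 45 genes at either time and for 0% of all genes. At 4 h 9 of 45 had an unadjusted p under 0.05 for the interaction and 35 a positive value, where 2356 of all 16226 genes had such a p and 50.3% were positive. Xrcc5 had the smallest p of the 45 (0.55 ± 0.14 SE on the log2 scale, adjusted p = 0.18). At 24 h 1 of 45 did. Voom gave 0 in these comparisons, and only the 4 h groups in the fit gave 3 for the interaction at 4 h.

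**Figure D4:**
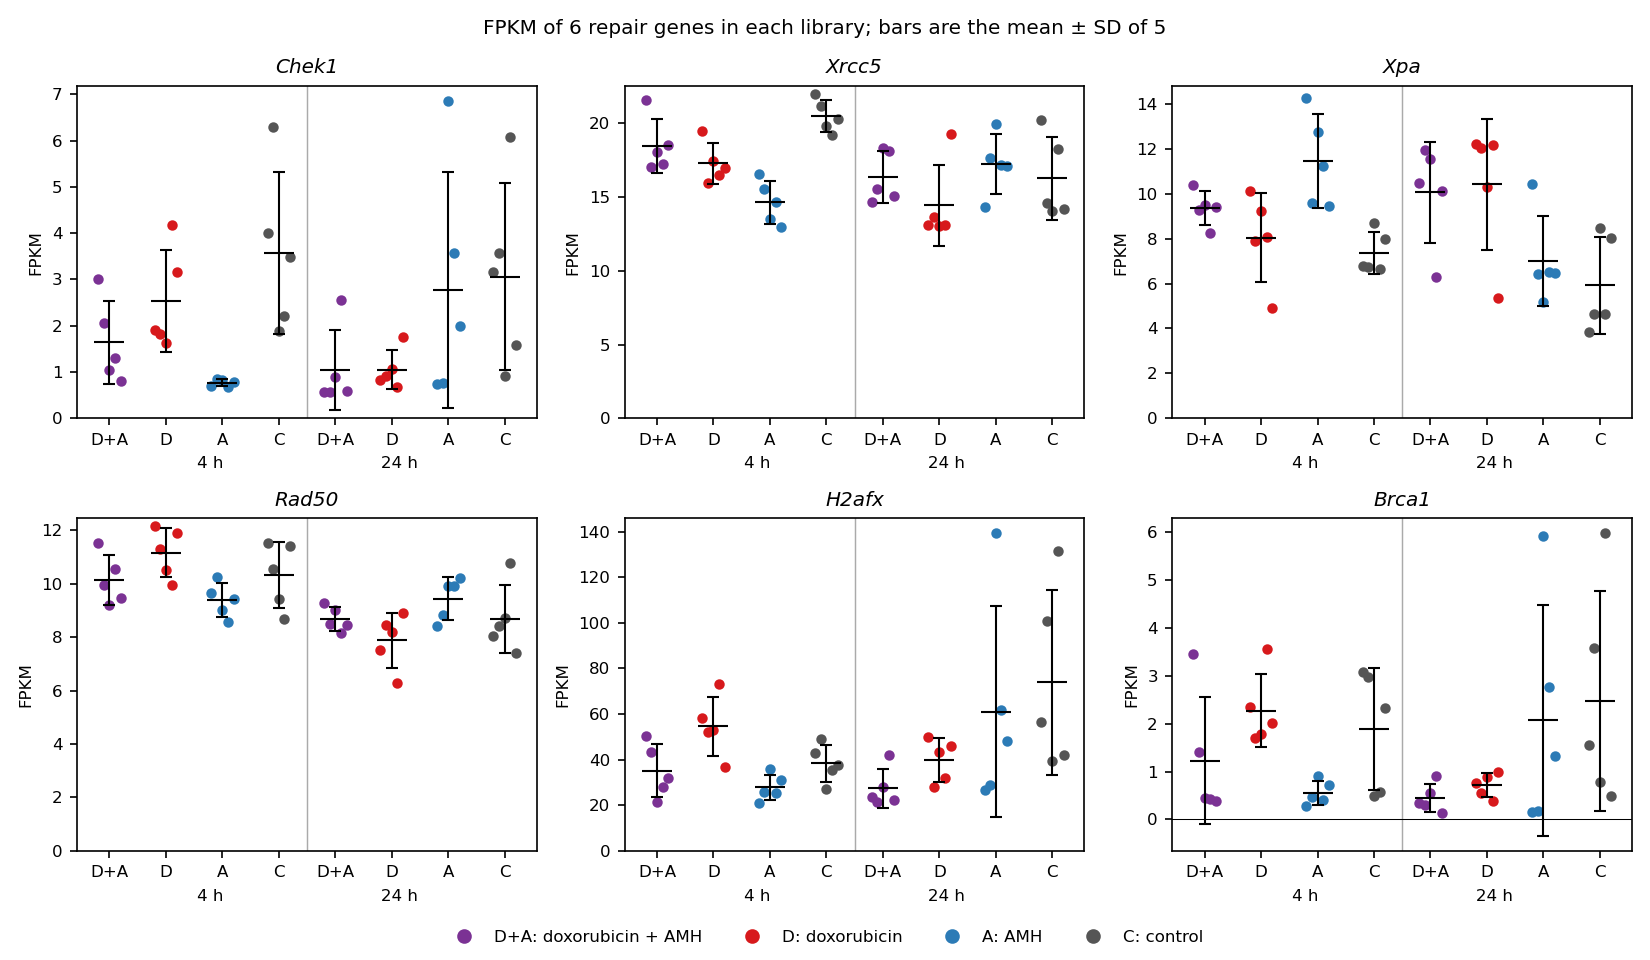
FPKM (y axis) of Chek1, Xrcc5, Xpa, Rad50, H2afx and Brca1 in each library (points) of the 8 groups (x axis, 4 h at the left and 24 h at the right of each panel), with the mean and SD of 5 libraries. The AMH libraries at 4 h lie below every control for Chek1 and Xrcc5 and above every control for Xpa, and at 24 h the AMH and control libraries spread widely for Chek1, H2afx and Brca1.

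By 24 h AMH alone changed 0 of the 45 genes, where 0.462% of all genes passed, with 2 of 45 (Wrn and Ercc3) at an unadjusted p under 0.05 and 0 by voom. Chek1 had 0.750, 0.754, 6.85, 3.57 and 1.99 FPKM in AMH libraries at 24 h, against 3.16, 3.57, 0.921, 6.09 and 1.58 FPKM in controls. Each group held libraries both near 1 FPKM and above 6 FPKM. Brca1 ran over the same libraries, with 0.159 and 0.171 FPKM in AMH replicates 1 and 2 and 5.92 FPKM in replicate 3, against 0.488 to 5.97 FPKM in controls. AMH replicate 3 and control replicate 4, the libraries with the most Brca1, also had the highest DNA replication scores, 4.37 and 4.28. The log2 difference of Brca1 was -0.28 ± 0.40 (SE, limma adjusted p = 0.73), so its standard error exceeded it. The count was 2 without control replicate 3 and 1 without AMH replicate 3.

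Between the times, AMH libraries at 24 h had higher values than those at 4 h in 37 of 45 genes, 15 with an unadjusted p under 0.05, and 0 passed, where 4.01% of all genes did. Over all 16226 genes 50.5% were higher and 4321 had an unadjusted p under 0.05. In the same libraries 20 of 20 DNA replication genes had a positive difference, 9 with an unadjusted p under 0.05, as did 22 of 22 mitosis genes (median log2 difference 0.89), with none passing, and their part was not tested. Mdc1 came closest with a log2 difference of 0.37 ± 0.11 (SE, limma adjusted p = 0.050), followed by Xpa at -0.65 ± 0.20 (adjusted p = 0.052). Without AMH replicate 1 of 24 h 10 of 45 passed, without AMH replicate 5 of 24 h 1 did, and voom gave 3. In doxorubicin libraries Rad50, the coiled-coil subunit of the end-binding complex, fell, the single call of 45 (2.22%), where 1.58% of all genes passed, 0.721% lower. Rad50 had 7.54, 8.47, 8.21, 6.29 and 8.89 FPKM at 24 h, against 12.2, 11.3, 10.5, 9.96 and 11.9 FPKM at 4 h. The groups did not overlap, and the log2 difference was -0.46 ± 0.09 (SE, limma adjusted p = 0.0040). Without doxorubicin replicate 5 of 24 h 4 of 45 passed. For the doxorubicin effect at 24 h minus that at 4 h Rad50 did not pass. Its fall is therefore not shown to be particular to doxorubicin. In the combined treatment 0 of 45 changed, where 0.0740% of all genes did, with 1 of 45 (Rad50) at an unadjusted p under 0.05 and 0 by voom.

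In control libraries 2 of 45 fell at 24 h, a share of 4.44%, where 7.32% of all genes passed, 3.04% lower. Xrcc5 averaged 16.3 ± 2.83 FPKM at 24 h and 20.5 ± 1.11 FPKM at 4 h, and Ogg1 averaged 4.78 ± 0.663 FPKM at 24 h and 7.04 ± 0.646 FPKM at 4 h (SD, n = 5 each). The log2 differences were -0.33 ± 0.10 and -0.48 ± 0.14 (SE, limma adjusted p = 0.043 and 0.029). Over all genes 695 were higher and 493 lower in this comparison, against 347 higher and 697 lower after rescaling to total reads, which gave 0 higher and 3 lower of the 45. The count was 1 without control replicate 1, 2 or 4 of 4 h, 0 without replicate 3 or 5 of 4 h, 0 without replicate 2 of 24 h, 1 without replicate 1 or 5 of 24 h, and 4 without replicate 4 of 24 h. The effect of doxorubicin at 24 h minus that at 4 h passed for 0 of 45, where 0.0123% of all genes did, with 5 of 45 at an unadjusted p under 0.05 (H2afx, Bard1, Rad54b, Msh6 and Xpa) and 0 by voom. Of those, H2afx had the largest value, -1.23 ± 0.46 (SE) on the log2 scale, with an adjusted p of 0.49.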

How the data were processed

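Bulk RNA sequencing of mouse uterus was deposited as 1 table of FPKM values per gene and library, made by the authors. Per the submitters' processing notes the build was mm10. For the aligner, the counter, the annotation release and strandedness, the choice was not given in the sources used here. The 45 genes, the gene lists and the comparisons were chosen with earlier results of these data known. The DNA replication list, the rescalings, the correlation over all genes and the high-ovary threshold were chosen after seeing the data. All 45 genes could be named. Of other repair genes, up to 4 called per pathway and comparison, by smallest p, could be named.

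Of 54532 genes, the 16226 that reached 1 FPKM in 5 or more of 40 libraries were tested. Limma 3.58.1 (R 4.3.3) was run on log2(FPKM + 1). The fit held all 8 groups (32 residual degrees of freedom), moderated with a trend. Tests were two-sided. Each of 15 comparisons had its own Benjamini-Hochberg adjustment over all genes tested, and 0.05 was the threshold. All fold changes are on the log2(FPKM + 1) scale, which understates changes of low genes. Whole reads were rebuilt from FPKM and the deposited gene length (100% whole within 0.01 read) and used for voom and for rescaling. The model was tested on simulated data. Correlations, promoters and figures used Python 3.11.15 with numpy 2.4.6, pandas 2.3.3, scipy 1.17.1 and matplotlib 3.10.9. Same-numbered libraries of different groups were checked for pairing, which this cannot settle. The numbers were not used as a block in the main fit. Alternatives were other pseudocounts, filters, scalings, weights, subsets of libraries and leaving out each library.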

Additional observations from a re-analysis of the deposited data

Results flagged for a closer look

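In 37 of 360 sets of 5 libraries (10.3%), each a repair gene in a group, the highest or lowest library stood apart from the other 4 by a gap above Dixon's critical value. Chance gives about 1 in 20 for independent, normally distributed values. These genes share libraries, vary together and were taken as FPKM, so that figure cannot show an excess. Replicate 4 of the doxorubicin with AMH libraries at 24 h stood apart in 8 genes, Chek1 (2.56 FPKM), Ercc3 (18.1 FPKM), Exo1 (0.914 FPKM), Parp1 (23.6 FPKM), Prkdc (2.26 FPKM), Rnf168 (9.93 FPKM), Rpa1 (16.2 FPKM) and Xrcc6 (13.8 FPKM). Replicate 5 of the doxorubicin libraries at 24 h stood apart in 8 genes, Ercc3 (18.9 FPKM), Lig4 (1.74 FPKM), Nbn (15.0 FPKM), Parp1 (23.1 FPKM), Rnf168 (10.7 FPKM), Rpa1 (13.9 FPKM), Xpa (5.36 FPKM, low) and Xrcc5 (19.3 FPKM). Replicate 3 of the AMH libraries at 24 h stood apart in 4 genes, Blm (2.59 FPKM), Rad54l (4.88 FPKM), Rpa3 (27.4 FPKM) and Xrcc6 (17.7 FPKM). Replicate 1 of the doxorubicin with AMH libraries at 4 h stood apart in 3 genes, Blm (1.63 FPKM), Chek2 (7.0005 FPKM) and Exo1 (2.05 FPKM). The first and second of these libraries are among those with high oviduct markers. All 4 had the highest DNA replication score of their group, at 2.85, 2.58, 4.37 and 3.62 in that order. The part of either score in these values was not tested. At 24 h, replicate 1 of AMH stood apart in Ercc1 (10.5 FPKM) and Xpa (10.4 FPKM), doxorubicin replicate 1 was low in Ercc2 (4.39 FPKM), doxorubicin replicate 4 was high in Parp2 (11.6 FPKM) and control replicate 4 was high in Xrcc2 (3.37 FPKM). At 4 h, AMH replicate 3 was high in Fancd2 (1.05 FPKM) and low in Prkdc (0.949 FPKM), and AMH replicate 1 was low in Xrcc2 (0.968 FPKM). Doxorubicin with AMH replicate 3 was low in Xrcc4 at 4 h (2.25 FPKM). Doxorubicin at 4 h had single high values of Wrn in replicate 1 (5.39 FPKM), Rad54l in replicate 4 (2.63 FPKM) and Prkdc in replicate 5 (2.11 FPKM). Among controls at 4 h, replicate 4 was low in Palb2 (0.576 FPKM) and replicate 2 was high in Trp53bp1 (5.61 FPKM).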

How the results depend on the processing

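Counts are genes called of 45, and no called gene reversed its direction under any setting run. With library weights the count was 1 for doxorubicin against control at 4 h, 6 for doxorubicin with AMH against control at 4 h, 25 for AMH against control at 4 h, 22 for doxorubicin against control at 24 h, 2 at 24 h for doxorubicin with AMH against doxorubicin alone, 28 for doxorubicin with AMH against control at 24 h and 5 for AMH against control at 24 h. With those weights 24 h against 4 h gave 4 in controls, 10 with doxorubicin, 1 with doxorubicin and AMH and 8 with AMH, the change of the doxorubicin effect gave 3 and the interaction at 4 h gave 5. AMH against control at 4 h (14) gave 9 with no filter, 22 with only the groups compared, 23 without the high-oestrogen and 22 without the high-ovary libraries. Doxorubicin against control at 24 h (6) gave 2 with no filter, 2 scaled to total reads, 2 with voom, 0 with only the groups compared and 0 without the high-oestrogen libraries. Doxorubicin with AMH against control at 24 h (14) gave 6 with no filter, 8 with a filter at 5 FPKM, 9 with voom, 1 with only the groups compared, 0 without the high-oestrogen and 7 without the high-ovary libraries. Controls at 24 h against 4 h (2) gave 0 with no filter, 6 with voom, 0 with only the groups compared and 5 without the high-ovary libraries. Doxorubicin at 24 h against 4 h (1) gave 3 with only the groups compared and 2 without the high-ovary libraries. AMH at 24 h against 4 h (0) gave 3 with a filter at 5 FPKM, 3 with voom and 1 without the high-oviduct libraries. The interaction at 4 h (0) gave 3 with only the groups compared. The cause of these moves was not tested. Leaving out 1 library gave 7 to 17 for AMH against control at 4 h, 0 to 17 for doxorubicin against control at 24 h, 3 to 23 for doxorubicin with AMH against control at 24 h, 0 to 2 for AMH against control at 24 h, and, between times, 0 to 4 in controls, 1 to 4 with doxorubicin and 0 to 10 with AMH, and 0 to 0 elsewhere. Same-numbered libraries were treated as unpaired. Correlations of their deviations ranged from -0.715 to 0.388, with 0 to 4 of 5 pairs above 0.1 per comparison, which cannot settle pairing. Against control, the replicate block gave 11 for AMH at 4 h, 5 for doxorubicin at 24 h and 12 for both at 24 h. For 24 h against 4 h it gave 1 in controls and 1 with AMH. The number of genes moving with mitosis genes (26) ranged from 21 to 34. The 34 was obtained with the DNA replication list in place of the mitosis list. For single called genes, 577 of 840 values under other settings kept their call and 263 lost it. Median-of-ratios scaling, 1 of these settings, left the deposited values as they were and so kept every call by construction. Low genes such as Rad54b and Exo1 rest on few reads.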
